A study of Mus musculus with 7 samples.

Results

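The glycolysis and hypoxia response genes described here are 34 named genes: glucose and lactate carriers, the enzymes of glycolysis, enzymes that steer pyruvate, hypoxia-inducible factor 1 alpha, the hydroxylases that mark it for destruction, and genes known to be induced when oxygen falls. Members were found by the gene name printed for each probe in the array files, and each gene was represented by its brightest probe. All 34 were present, with 60 probes among them, and each used probe was well above background on all 7 arrays. They are 34 of 23312 genes and other transcripts tested. RNA of mouse brain was measured on Agilent oligonucleotide arrays in 1 colour, with 1 array per sample. The arrays fall into 3 groups. Knockout (KO) day 3 comprised 3 arrays of Pla2g2e -/- mice, which lack a secreted phospholipase A2, taken on day 3 after a middle cerebral artery had been occluded for 60 min and then reopened. Wild type (WT) day 3 comprised 3 arrays of mice treated the same way, and WT sham was 1 array. This operation (MCAO) is a model of ischaemic stroke with reperfusion. All mice were C57BL/6N males. The treatment text of the labels gives the occlusion for the sham sample too, while its title calls it sham, and the title was followed. The labels name the tissue as brain and give neither the hemisphere or region nor the allele of the knockout. Whether replicates are separate animals is not stated, so a p-value speaks of the spread among these samples alone, and that spread could be technical.

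Glycolysis breaks glucose down to pyruvate in a chain of enzymes, most of which exist in several forms made from different genes and used by different cell types. When oxygen is short, pyruvate is turned into lactate, which monocarboxylate carriers move across the membrane. With enough oxygen, the prolyl hydroxylases Egln1 and Egln3 modify hypoxia-inducible factor 1 alpha (Hif1a) so that it is degraded. In hypoxia the factor is stable and raises transcription of many glycolytic genes as well as of Vegfa, Adm, Bnip3, Car9 and others, and in ischaemic brain this response is one of the best known.

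Values are log2 of the processed signal minus the 75th percentile of the same array, so 1 unit is a factor of 2. Levels of different probes are not compared, though marker levels are summed per array below. One array stood apart. Across all genes, WT day 3 replicate 1 correlated with the other arrays at 0.857 to 0.916 (Pearson's r over genes, which are not independent replicates), while the other 15 pairs of arrays correlated at 0.968 to 0.991. It had the highest reading of the 7 arrays for all 12 of 12 neuronal markers and the lowest for 8 of 8 endothelial, 9 of 10 microglia or macrophage and 5 of 8 neutrophil markers. The microglia or macrophage marker Itgam was highest there, at 3.89. So was the neutrophil marker Camp, though WT replicate 3 also rounds to its -3.04. Over all genes WT replicate 1 was the highest for 43.9% and the lowest for 34.3%. Of 8 astrocyte markers it was the highest for 3 and the lowest for 2, and it was within the others for all 8 oligodendrocyte markers. Summed on a linear scale, the 12 neuronal markers read 18 to 62.5 on the KO arrays, 192, 39.8 and 42.8 on WT replicates 1, 2 and 3, and 59.3 on sham. The 8 endothelial markers summed to 32.7 to 64.2 on the KO arrays, 7.1, 52.1 and 51.6 on the WT replicates in the same order, and 26.2 on sham. WT replicate 1 lay outside every other array on both sums. The 10 microglia or macrophage markers summed to 150 to 168 on the KO arrays, 45.8, 162 and 141 on WT, and 158 on sham. The 8 neutrophil markers summed to 13.5 to 30.7 on the KO arrays, 0.496, 31.6 and 23.2 on WT, and 4.64 on sham. Such a sum is led by its brightest probes, here S100a8 and S100a9 on every array but WT replicate 1. The neutrophil median was -0.99, -3.23 and -2.09 on the KO arrays, -6.08, -1.42 and -1.48 on WT, and -3.82 on sham. Neuronal, astrocyte, microglial, endothelial and oligodendrocyte markers were all well above background on every array. Of the 8 neutrophil markers, 5 were so on WT replicate 1, 7 on WT replicate 2 and on sham, and 8 on each other array. The Pla2g2e probe read -4.44, -5.83 and -4.97 on the KO arrays against -6.89, -3.68 and -3.36 on the WT arrays, and -4.69 on sham. The array labelled WT replicate 1 was the lowest, below every KO array, and sham, also WT, lay among the KO arrays. This probe thus did not separate the genotypes on all arrays, though every KO array lay below WT replicates 2 and 3. The difference was -0.43 ± 1.02 (SE; limma, adjusted p = 0.889), and -1.55 ± 0.44 without WT replicate 1 and sham (95% interval -2.70 to -0.41; limma, unadjusted p = 0.0179, adjusted p = 1). The sources used here do not give the deleted part of the gene, so a probe outside it would check nothing, and WT replicate 1 stands throughout for the array so labelled. Counts and named differences of KO against WT are given with all arrays and without WT replicate 1 and sham, and those against sham also without WT replicate 1. KO arrays lay on 1 slide and WT and sham arrays on the other, so genotype and slide cannot be told apart.

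Between KO and WT on day 3, none of the 34 genes passed the test, and the readings of the groups overlapped for every one of them. In limma's model of the 3 groups, 0 of 34 genes passed an adjusted p of 0.05, as did 0% of all genes. The smallest adjusted p among the members was 0.862 (limma, Benjamini-Hochberg over all genes). At an unadjusted p under 0.05 there were 0 members, beside 197 genes in all, or 0.845%. By sign alone 15 members were higher and 19 lower in KO, with a median difference of -0.13 beside -0.03 over all genes. For 0 of 34 members did the KO and WT arrays not overlap, in either direction, while 1.88% of all genes lay wholly higher and 2.65% wholly lower in KO. Without WT replicate 1 and sham, 0 members passed, 9 were higher and 25 lower in KO, and the median was -0.06 beside 0.00 over all genes. Over all genes, 0 passed there too (0%), with 381 (1.63%) at an unadjusted p under 0.05, of which 1 was a member, Slc16a3. The 95% interval of the difference lay within 1 log2 unit of 0 on both sides, which is a 2-fold change, for 14 members with all arrays and for 25 without WT replicate 1 and sham. The precision is limited by the number of arrays. A change whose interval holds 0 could not pass. The intervals are not adjusted for the number of genes, so a change whose interval leaves 0 could still fail the adjusted test.

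**Figure D1:**
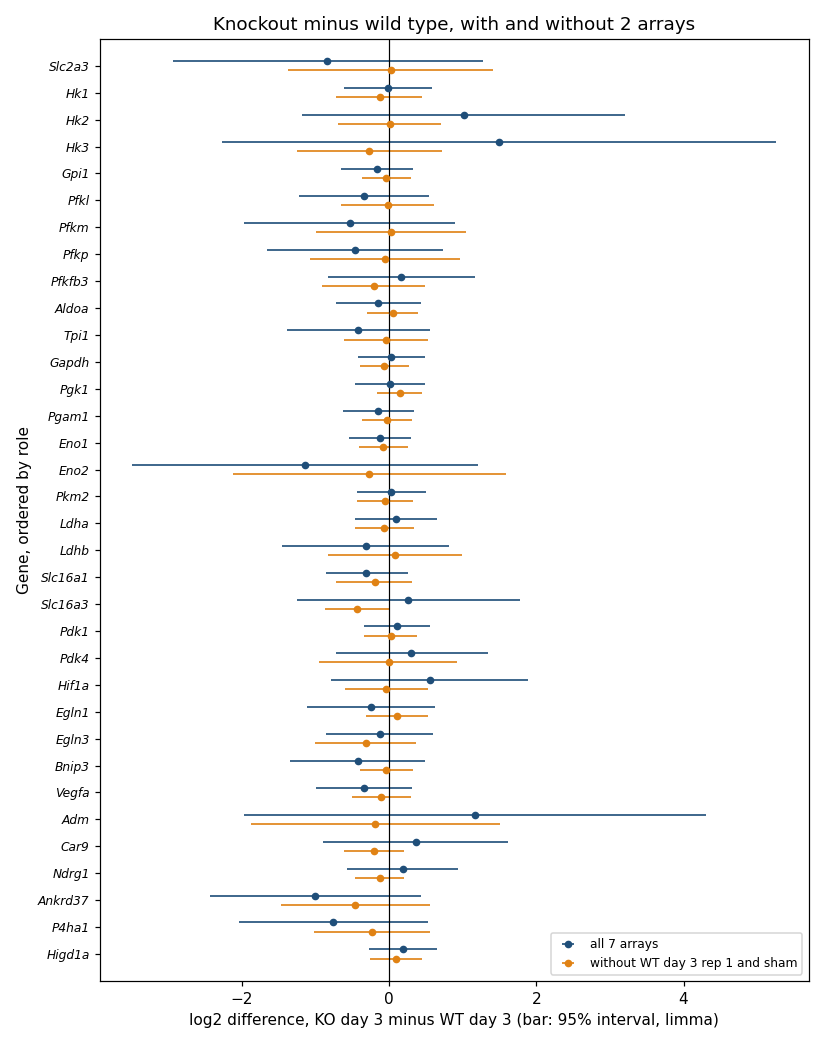
Differences between KO and WT on day 3 for the 34 genes, ordered by role, as log2 differences on the horizontal axis with 95% intervals from limma as bars. Points with all arrays range from -1.14 to 1.49, and the points without WT replicate 1 and sham range from -0.46 to 0.14.

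WT replicate 1 was the array on which most of the 34 genes were at an end of their range. By the used probes, it read outside all other 6 arrays for 30 of them, above for 18 (52.9%) and below for 12 (35.3%). It lay within the others for Hk1, Gapdh, Pkm2 and Egln3, though other probes of Hk1 and several of Gapdh put it highest. Over all genes it was above for 43.9% and below for 34.3%, so the members' shares were near the background. The median range of a member over the 7 arrays was 1.27, and 0.59 over the 6 arrays without WT replicate 1, beside 1.20 and 0.65 over all genes. By role, WT replicate 1 was above the others for 10 of the 13 enzymes from phosphoglucose isomerase to pyruvate kinase with the regulator Pfkfb3, and below for 1 of them, Pfkfb3 itself. It was above the others for 1 and below for 2 of 4 genes of glucose uptake and hexokinase, above for 2 and below for 4 of 6 genes of lactate and pyruvate handling, and above for 4 and below for 4 of 8 other hypoxia targets. In bulk tissue, fewer cells of a type and less RNA per cell cannot be told apart, and the part of the cell markers in these readings was not tested.

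**Figure D2:**
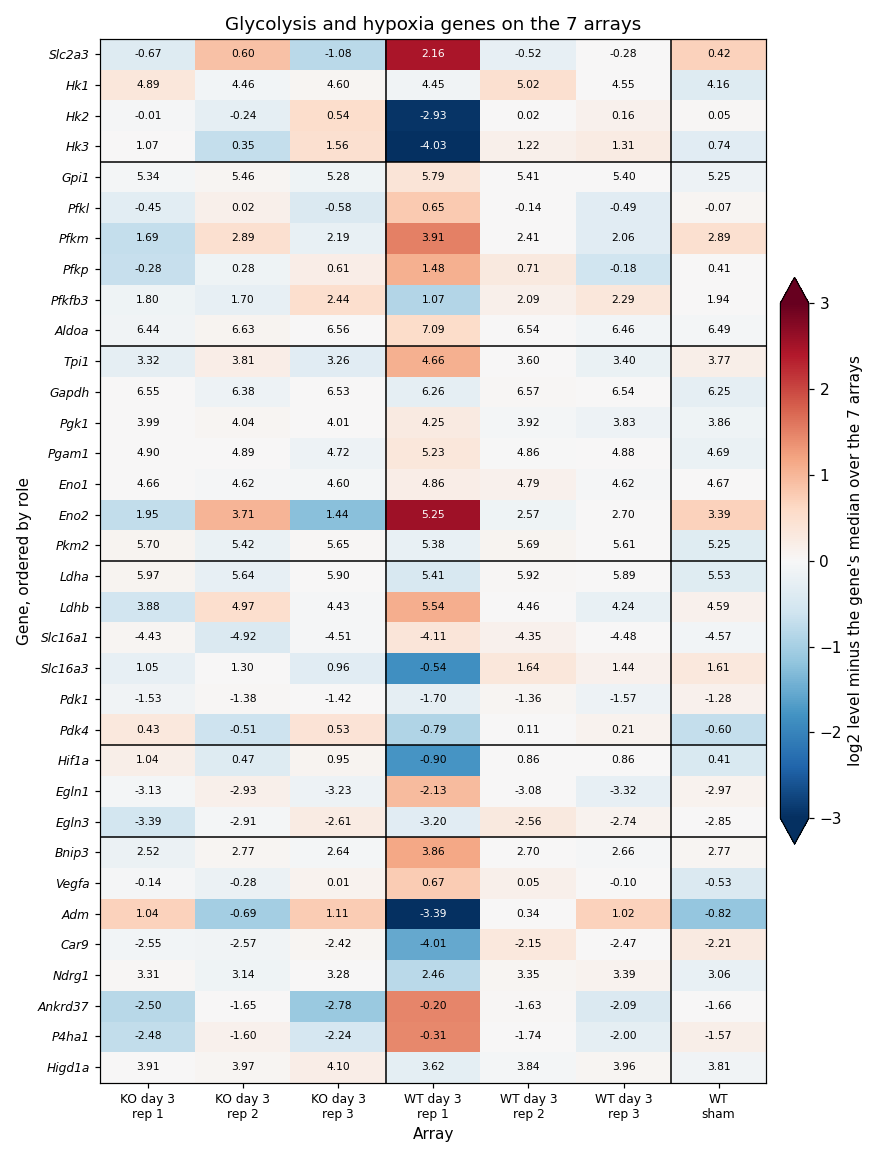
Levels of the 34 genes on the 7 arrays, as colours for the log2 level minus the gene's median over the 7 arrays, with genes in rows by role and KO day 3, WT day 3 and sham arrays in columns. The column of WT replicate 1 holds the strongest colours in both directions, among them Hk3, Hk2 and Adm, which are lowest there, and Slc2a3 and Eno2, which are highest.

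Slc2a3, the glucose transporter GLUT3 that serves neurons, read -0.67, 0.60 and -1.08 on KO replicates 1, 2 and 3 against 2.16, -0.52 and -0.28 on WT replicates 1, 2 and 3, and 0.42 on sham. WT replicate 1 was the highest array and KO replicate 2 the next, and the groups overlapped. The difference was -0.84 ± 0.85 (SE; limma, adjusted p = 0.862), and 0.02 ± 0.53 without WT replicate 1 and sham. Hexokinases trap glucose in the cell as glucose 6-phosphate. Hk2, the inducible form, read -0.01, -0.24 and 0.54 in KO, -2.93, 0.02 and 0.16 in WT and 0.05 on sham. The 6 arrays other than WT replicate 1 lay within 0.78 of each other, and that array read 2.70 below the lowest of them. The Hk2 difference was 1.01 ± 0.88 (SE; limma, adjusted p = 0.862), and 0.01 ± 0.27 without that array and sham, with a 95% interval of -0.69 to 0.70. Hk3, a form found in blood-derived myeloid cells, read 1.07, 0.35 and 1.56 in KO, -4.03, 1.22 and 1.31 in WT and 0.74 on sham. Its range over the 7 arrays corresponds to 48.2-fold, the widest of the 34 genes. All of that beyond 1.22 log2 units came from WT replicate 1, and the KO minus WT difference turned to -0.27 ± 0.38 without it and sham, beside 1.49 ± 1.52 with all arrays (SE; limma, adjusted p = 0.862 with all arrays). On that array the microglia and neutrophil markers were also at their lowest sums, and their part in the Hk3 reading was not tested.

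Hk1, the main hexokinase of brain, had probes that read differently. Its brightest probe, which the design places at chr5:22118404-22118463 of mm9 and not on chromosome 10 where RefSeq has the gene, read 4.89, 4.46 and 4.60 in KO, 4.45, 5.02 and 4.55 in WT and 4.16 on sham. A second probe at chr10:61731856-61731915 read 3.64, 3.83 and 3.89 in KO, 4.76, 3.83 and 3.91 in WT and 3.94 on sham. The first probe put WT replicate 1 within the others and sham lowest, while the second and also the third probe put WT replicate 1 highest and the remaining arrays close together. Among all member probes, 13 of 60 were placed on a chromosome other than the gene's, among them all 9 for Gapdh and the brightest probes of Pkm2 and Eno1. What these probes detect beside the named gene was not tested.

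**Figure D3:**
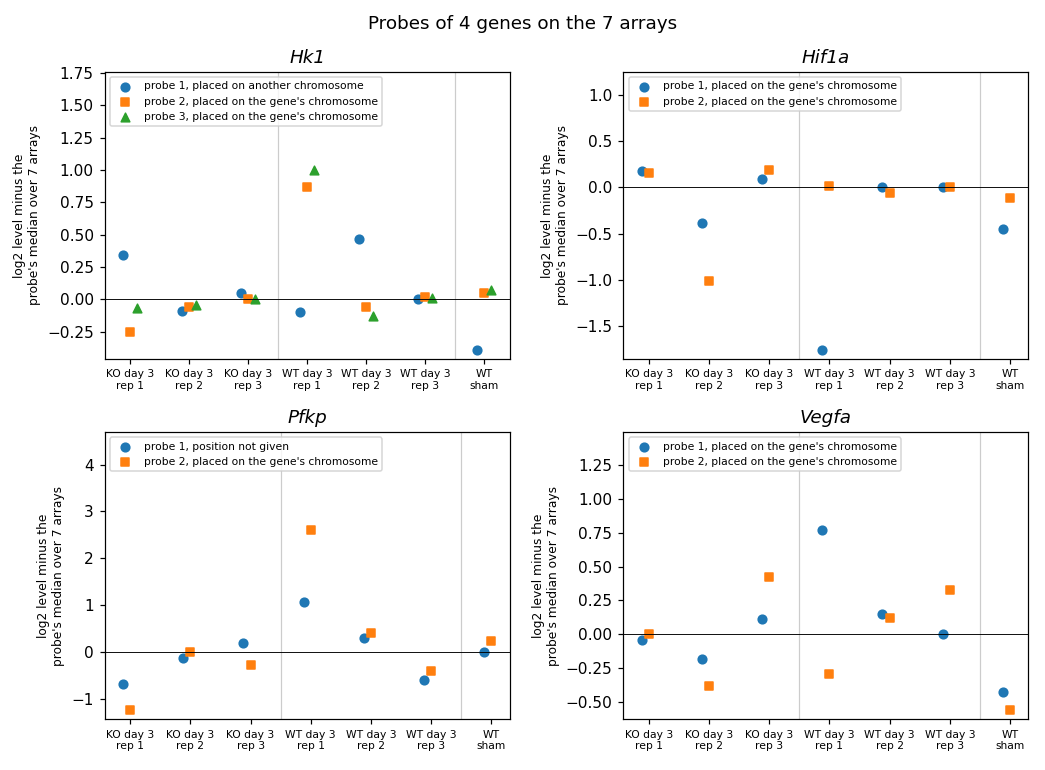
Readings of the individual probes of Hk1, Hif1a, Pfkp and Vegfa on the 7 arrays, as log2 level minus each probe's median over the arrays, with KO, WT and sham arrays from left to right. On WT replicate 1 the 2 Hk1 probes placed on the gene's chromosome are high and the other is not, and only the first of the Hif1a probes is low.

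The upper steps of glycolysis prepare glucose and split it. Phosphofructokinase, the committed step, has a muscle form (Pfkm), a liver form (Pfkl) and a platelet form (Pfkp). Pfkm read 1.69, 2.89 and 2.19 in KO, 3.91, 2.41 and 2.06 in WT and 2.89 on sham, with WT replicate 1 the highest by 1.01. Its difference of -0.53 ± 0.58 became 0.02 ± 0.39 without that array and sham. Pfkl and Pfkp were also highest on WT replicate 1, by 0.62 and 0.77, and their differences of -0.34 and -0.46 were -0.02 and -0.06 without it and sham. The other Pfkp probe, at chr13:6579124-6579183, spread more: it read -2.77, -1.53 and -1.80 in KO, 1.07, -1.13 and -1.94 in WT and -1.30 on sham. Its KO minus WT difference was -1.37, and -0.50 against WT replicates 2 and 3 alone. The design gives no position for the used Pfkp probe. Pfkfb3 makes fructose 2,6-bisphosphate, which activates phosphofructokinase, and was the 1 gene of this section lowest on WT replicate 1: 1.80, 1.70 and 2.44 in KO, 1.07, 2.09 and 2.29 in WT and 1.94 on sham. Gpi1, which turns glucose 6-phosphate into fructose 6-phosphate, and Aldoa, the aldolase that splits the sugar, were steady. Their ranges over the 6 arrays without WT replicate 1 were 0.21 and 0.19, and WT replicate 1 stood 0.33 and 0.46 above the highest of these.

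The lower steps carry the split sugar to pyruvate and yield ATP. Eno2, the neuronal enolase, read 1.95, 3.71 and 1.44 in KO, 5.25, 2.57 and 2.70 in WT and 3.39 on sham. WT replicate 1 was highest, and KO replicate 2 lay far above the other KO arrays, so that the KO arrays spanned WT replicates 2 and 3 and sham. KO replicate 2 also had the highest neuronal median of the KO arrays, 2.29 beside 0.66 and 0.20. The Eno2 difference was -1.14 ± 0.95 (SE; limma, adjusted p = 0.862), and -0.27 ± 0.71 without WT replicate 1 and sham. Its spread over the other 6 arrays, 2.27, was the widest of the 34 genes. Eno1, the form of most cell types, read 4.66, 4.62 and 4.60 in KO, 4.86, 4.79 and 4.62 in WT and 4.67 on sham, a range of 0.26 over all 7 arrays. The Eno1 probe is one of those placed on another chromosome. Tpi1, the triosephosphate isomerase, read 3.32, 3.81 and 3.26 in KO, 4.66, 3.60 and 3.40 in WT and 3.77 on sham, again highest on WT replicate 1. Gapdh, Pgk1 (phosphoglycerate kinase), Pgam1 (phosphoglycerate mutase) and Pkm2 (pyruvate kinase) moved little: their ranges over the 7 arrays were 0.32, 0.41, 0.55 and 0.45. Pgk1 was the 1 member whose KO arrays, at 3.99, 4.04 and 4.01, all lay above WT replicates 2 and 3, at 3.92 and 3.83. Over all genes 6.33% lay so, WT replicate 1 read 4.25, and the difference without it and sham was 0.14 ± 0.12 (SE; limma, unadjusted p = 0.303). The 9 Gapdh probes gave differences of -0.07 to 0.03, with 7 lower and 2 higher in KO. Against WT replicates 2 and 3 alone the range was -0.09 to 0.11.

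Lactate dehydrogenase interconverts pyruvate and lactate, with Ldha the hypoxia-induced and Ldhb the more oxidative form. Ldha read 5.97, 5.64 and 5.90 in KO, 5.41, 5.92 and 5.89 in WT and 5.53 on sham, lowest on WT replicate 1. Ldhb read 3.88, 4.97 and 4.43 in KO, 5.54, 4.46 and 4.24 in WT and 4.59 on sham, highest on that array. These forms thus lay at opposite ends on WT replicate 1. Their KO minus WT differences, 0.09 ± 0.23 for Ldha and -0.32 ± 0.46 for Ldhb, did not pass, and both signs turned without that array and sham, to -0.07 ± 0.15 and 0.08 ± 0.35. Slc16a3 (MCT4), the carrier that exports lactate from glycolytic cells, read 1.05, 1.30 and 0.96 in KO, -0.54, 1.64 and 1.44 in WT and 1.61 on sham. All KO arrays lay below WT replicates 2 and 3 and sham, and above WT replicate 1. Without that array and sham the difference was -0.44 ± 0.17 (SE; 95% interval -0.87 to 0.00; limma, unadjusted p = 0.0497, adjusted p = 1), and with all arrays it was 0.26 ± 0.61. Slc16a3 and Ndrg1 were the 2 members whose KO arrays all lay below WT replicates 2 and 3, beside 5.31% of all genes. Slc16a1 (MCT1), a carrier of endothelial and glial cells, read -4.43, -4.92 and -4.51 in KO, -4.11, -4.35 and -4.48 in WT and -4.57 on sham. Pyruvate dehydrogenase kinases keep pyruvate out of mitochondria. Pdk1, induced by hypoxia, kept within 0.42 on all arrays: -1.53, -1.38 and -1.42 in KO, -1.70, -1.36 and -1.57 in WT and -1.28 on sham. Pdk4, induced when fatty acids are burned, read 0.43, -0.51 and 0.53 in KO, -0.79, 0.11 and 0.21 in WT and -0.60 on sham. Its KO and WT arrays overlapped, with KO replicate 2, WT replicate 1 and sham the 3 lowest.

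Differences between 2 forms of one enzyme or carrier on the same array remove whatever both probes share there. For 12 such pairs, exact two-sided permutation tests of KO against WT gave p from 0.4 to 0.9 and an adjusted p of 0.9 each (Benjamini-Hochberg over 12), where 3 arrays against 3 cannot go below 0.10. The size of such a difference on one array has no meaning across probes, but its change across arrays does. WT replicate 1 was the lowest array for 11 of 12 pairs by the used probes, all but Pfkp minus Pfkm. On that array the used Pfkp probe read 1.13 above the median of the other 6 arrays, and Pfkm 1.61 above. The other Pfkp probe read 2.73 above it, and no pair was computed with that probe. The pairs are not independent, since Hk1, Pfkm and Slc16a3 stand in 2 each, and no such share was computed over other genes. Eno1 minus Eno2 was 2.71, 0.91 and 3.16 in KO, -0.40, 2.22 and 1.93 in WT and 1.28 on sham. Slc2a1 (GLUT1, the transporter of the blood-brain barrier) minus Slc2a3 was 6.25, 4.31 and 6.72 in KO, 0.64, 6.00 and 5.83 in WT and 4.22 on sham. In both pairs KO replicate 2 lay near sham and the other KO arrays above WT replicates 2 and 3. Ldha minus Ldhb was 2.09, 0.67 and 1.47 in KO, -0.13, 1.46 and 1.65 in WT and 0.94 on sham, with WT replicate 1 lowest and KO replicate 2 next. Hk2 minus Hk1, with the Hk1 probe on chromosome 10, was -3.65, -4.07 and -3.35 in KO, -7.70, -3.81 and -3.74 in WT and -3.89 on sham. Slc16a3 minus Slc16a1 was 5.48, 6.22 and 5.48 in KO, 3.56, 6.00 and 5.92 in WT and 6.17 on sham. The KO minus WT differences of these 5 pairs, 1.01, 1.60, 0.42, 1.39 and 0.57 in the order given, were 0.19, -0.16, -0.15, 0.09 and -0.23 against WT replicates 2 and 3 alone.

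**Figure D4:**
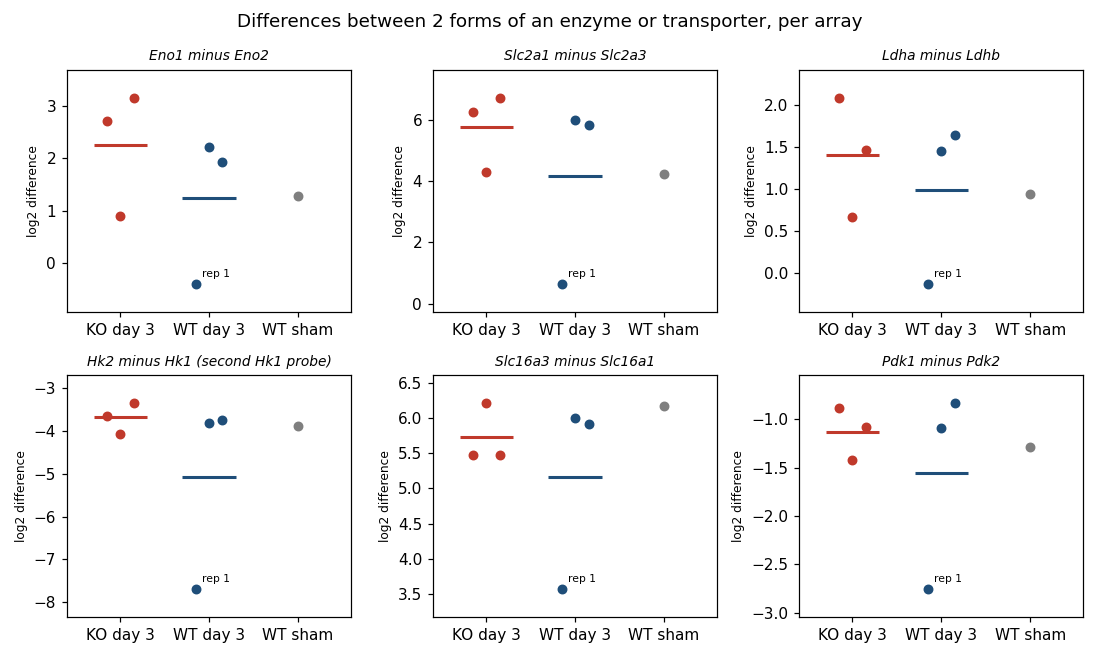
Differences on the log2 scale between 2 forms of an enzyme or carrier, 1 point per array, with horizontal lines for the mean of the 3 arrays of KO day 3 and of WT day 3. WT replicate 1 is the lowest point in all 6 panels, and KO replicate 2 is the lowest KO array for Eno1 minus Eno2 at 0.91, below sham at 1.28.

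Hif1a, the oxygen-sensitive subunit, read 1.04, 0.47 and 0.95 in KO, -0.90, 0.86 and 0.86 in WT and 0.41 on sham. The difference was 0.55 ± 0.54 (SE; limma, adjusted p = 0.862), and -0.04 ± 0.21 without WT replicate 1 and sham. The second Hif1a probe, at chr12:75033965-75034024, did not share the low reading: it read -5.60, -6.77 and -5.57 in KO, -5.74, -5.82 and -5.76 in WT and -5.87 on sham. Egln1, the main hydroxylase of the factor, read -3.13, -2.93 and -3.23 in KO, -2.13, -3.08 and -3.32 in WT and -2.97 on sham. Egln3, a hydroxylase that is itself hypoxia-induced, read -3.39, -2.91 and -2.61 in KO, -3.20, -2.56 and -2.74 in WT and -2.85 on sham. The arrays of both groups overlapped for these genes, and Egln3 was among the 4 members for which WT replicate 1 was not at an end. These are transcript levels, and the factor is controlled mainly as a protein, which was not measured.

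The remaining hypoxia targets split by their reading on WT replicate 1, with 4 highest there and 4 lowest. Adm, adrenomedullin, a peptide that widens vessels, read 1.04, -0.69 and 1.11 in KO, -3.39, 0.34 and 1.02 in WT and -0.82 on sham. KO replicate 2 lay next to sham, and the difference of 1.16 ± 1.26 (SE; limma, adjusted p = 0.862) was -0.19 ± 0.65 without WT replicate 1 and sham. Car9, a carbonic anhydrase at the cell surface, read -2.55, -2.57 and -2.42 in KO, -4.01, -2.15 and -2.47 in WT and -2.21 on sham. Without WT replicate 1 the other 6 arrays kept within 0.42. Ndrg1, a stress-induced protein that myelinating glia also express, read 3.31, 3.14 and 3.28 in KO, 2.46, 3.35 and 3.39 in WT and 3.06 on sham. Higd1a, a small mitochondrial protein, read 3.91, 3.97 and 4.10 in KO, 3.62, 3.84 and 3.96 in WT and 3.81 on sham.

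Ankrd37, an ankyrin repeat protein and a direct target of the factor, read -2.50, -1.65 and -2.78 in KO, -0.20, -1.63 and -2.09 in WT and -1.66 on sham. It had the smallest unadjusted p of the 34 genes, 0.134, with a difference of -1.01 ± 0.58 (SE; limma, adjusted p = 0.862). P4ha1, a subunit of the prolyl 4-hydroxylase that prepares collagen, read -2.48, -1.60 and -2.24 in KO, -0.31, -1.74 and -2.00 in WT and -1.57 on sham. Its difference was -0.76 ± 0.52, and its second probe gave -4.45, -4.01 and -4.29 in KO, -2.60, -3.87 and -4.08 in WT and -3.57 on sham. For both genes KO replicates 1 and 3 were the lowest arrays. Without WT replicate 1 and sham the differences were -0.46 ± 0.39 for Ankrd37 and -0.24 ± 0.30 for P4ha1. Bnip3, which promotes removal of mitochondria, read 2.52, 2.77 and 2.64 in KO, 3.86, 2.70 and 2.66 in WT and 2.77 on sham, and all but WT replicate 1 lay within 0.26. Vegfa, the vascular growth factor, read -0.14, -0.28 and 0.01 in KO, 0.67, 0.05 and -0.10 in WT and -0.53 on sham. Its second probe put WT replicate 1 among the lower arrays, at -2.08, with -1.79, -2.17 and -1.37 in KO, -1.67 and -1.46 on WT replicates 2 and 3 and -2.35 on sham.

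The promoters of the hypoxia targets are of interest because the factor binds the core ACGTG. The 250 bases before each annotated start were taken from RefSeq sequence of GRCm38.p6, which held 32 of the 34 members, Slc2a3 and Ndrg1 being the other two. A gene may have several starts, 9 of the 32 members did, and a gene counts if any of them matches. Both strands were searched for ACGTG, and overlapping E-box motifs CACGTG were counted as matches too. ACGTG was found in 19 of 32 members (59.4%) and in 18.5% of 27025 genes with a promoter in the same source. Per promoter it was found in 48.9% of 45 for the members and 16.6% of 32851 in all. The related motif GCGTG was found in 62.5% of the members and 30.9% of all genes, and CACGTG in 6 of 32 members (18.8%) and 6.9% of all genes. Many members are listed because hypoxia induces them, and the genes in all were not matched for base composition. The higher shares describe the list and test nothing. The promoters of 5 genes are shown, 3 for genes lowest on WT replicate 1 and 2 for genes highest there. Each has ACGTG or its reverse complement CACGT in capitals, read 5′ to 3′ on the gene's strand.
Hk2, chr6:82774455-82774704, minus strand: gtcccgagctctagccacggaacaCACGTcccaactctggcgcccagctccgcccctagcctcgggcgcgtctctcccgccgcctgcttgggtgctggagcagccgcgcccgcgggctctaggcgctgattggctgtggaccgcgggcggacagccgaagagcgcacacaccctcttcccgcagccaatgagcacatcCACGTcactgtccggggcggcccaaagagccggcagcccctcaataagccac
Car9, chr4:43506776-43507025, plus strand: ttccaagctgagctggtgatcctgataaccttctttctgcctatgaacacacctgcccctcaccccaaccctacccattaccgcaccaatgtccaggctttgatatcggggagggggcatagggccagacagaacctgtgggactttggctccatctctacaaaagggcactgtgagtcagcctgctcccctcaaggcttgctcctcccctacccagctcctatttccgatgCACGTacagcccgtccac
Ldha, chr7:46845554-46845803, plus strand: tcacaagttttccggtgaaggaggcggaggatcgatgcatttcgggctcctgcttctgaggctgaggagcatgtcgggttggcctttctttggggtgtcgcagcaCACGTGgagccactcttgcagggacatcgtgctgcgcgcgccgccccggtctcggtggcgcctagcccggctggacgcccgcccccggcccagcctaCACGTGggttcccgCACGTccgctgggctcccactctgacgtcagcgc
Ankrd37, chr8:45999851-46000100, minus strand: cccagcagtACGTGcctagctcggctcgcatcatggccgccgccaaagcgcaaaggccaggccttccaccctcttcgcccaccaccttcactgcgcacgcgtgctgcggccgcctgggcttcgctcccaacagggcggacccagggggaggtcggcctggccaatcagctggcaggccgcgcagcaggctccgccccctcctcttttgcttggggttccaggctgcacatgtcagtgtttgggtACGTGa
P4ha1, chr10:59323046-59323295, plus strand: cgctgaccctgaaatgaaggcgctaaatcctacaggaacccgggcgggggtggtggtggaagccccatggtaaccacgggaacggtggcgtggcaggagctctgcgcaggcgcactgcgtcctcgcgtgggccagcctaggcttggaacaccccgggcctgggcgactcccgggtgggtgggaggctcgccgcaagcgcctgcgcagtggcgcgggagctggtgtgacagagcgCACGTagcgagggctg
In Hk2 the matches begin 226 and 52 bases before the start of the gene, in Car9 18, in Ankrd37 241 and 6, and in P4ha1 16 bases before it. Ldha has 5 matches before the start shown and 0 before its other start. They lie at 145, 144, 48, 47 and 34 bases, where neighbouring positions are the 2 strands of 1 CACGTG. The match is a description of letters and not evidence of binding. Genes with and without it lay on both sides: ACGTG was present in 10 of 17 members with a promoter sequence that were highest on WT replicate 1, 7 of 11 that were lowest and 2 of 4 that were neither.

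Day 3 arrays were also set against the single sham array, whose spread limma takes from the day 3 arrays. Its microglia or macrophage markers summed to 158, beside 150 to 168 on the KO arrays and 45.8, 162 and 141 on WT. Its neutrophil sum, 4.64, was below every day 3 array but WT replicate 1, at 0.496. The sum on sham was led by S100a8 and S100a9. By the median of the 8 neutrophil markers sham, at -3.82, was again above WT replicate 1 alone, at -6.08. Whether this array stands for uninjured brain was not tested, so a small difference from it does not show that a gene was unmoved by ischaemia. In KO against sham 0 of 34 members passed, beside 3 genes in all (0.0129%), and the members split into 17 higher and 17 lower with a median of 0.00. In WT against sham 0 members passed, again beside 3 genes (0.0129%), with 25 higher and 9 lower and a median of 0.13 beside 0.03 over all genes. That split without WT replicate 1 was 20 higher and 14 lower, with a median of 0.04 beside 0.01. At an unadjusted p under 0.05 there were 0 members in either comparison, beside 304 genes (1.3%) for KO and 261 (1.12%) for WT. Both comparisons share the sham array. KO and sham differ in genotype and slide as well as in the operation, and these cannot be told apart. Adm was 1.31 above sham in KO, the largest of these differences, and Pdk4 was 0.75 above in KO and 0.44 above in WT. Eno2 was 1.02 below sham in KO, as a log2 difference of -1.02, and Slc2a3 -0.80. In WT the largest differences were -1.24 for Hk3, -0.97 for Hk2, -0.76 for Slc16a3, 0.74 for Vegfa and -0.67 for Car9. Without WT replicate 1 these were 0.53 for Hk3, 0.04 for Hk2, -0.06 for Slc16a3, 0.51 for Vegfa and -0.10 for Car9. Pdk4 then stood 0.76 above sham in WT, and Adm reached 1.50. Then 0 members passed in either comparison, beside 8 genes (0.0343%) in KO and 6 (0.0257%) in WT, and the smallest adjusted p of a member was 0.711 in KO and 0.768 in WT (limma). By the used probes, the sham array read outside all 6 day 3 arrays for 7 members, above for 1, Pdk1, and below for 6. Those 6 were Hk1, Gpi1, Gapdh, Pgam1, Pkm2 and Vegfa, and over all genes sham was above for 6.67% and below for 10.4%. Of the 4 genes whose used probe is placed on another chromosome, Hk1, Gapdh and Pkm2 were among these 6 and Eno1 was not. The other probes of Pkm2 and Vegfa put sham lowest too, those of Gapdh were mixed, and those of Gpi1 did not. Both Hk1 probes on chromosome 10 put sham, at 3.94 and -0.89, above all arrays but WT replicate 1.

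Among the 6 arrays other than WT replicate 1, sham was by the used probes the lowest for 12 members and the highest for 2, beside 24.9% and 21.8% of all genes. WT replicate 2 was the highest for 10 members and the lowest for 0, beside 7.95% and 7.84% of all genes. KO replicate 2 was the highest for 11 and the lowest for 5, beside 15.1% and 20.8%.

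Other genes of the same pathways did not pass the test of KO against WT either. Of 31 further genes of sugar metabolism 30 were measured, 0 passed, and 12 were higher and 18 lower in KO with a median of -0.13. Without WT replicate 1 and sham the split was 17 higher and 13 lower with a median of 0.04. The pentose phosphate enzyme Taldo1 read 6.15, 5.62 and 6.04 in KO, 4.67, 5.75 and 5.69 in WT and 5.51 on sham, a difference of 0.57 ± 0.36 (SE; limma, adjusted p = 0.862), and of 0.22 ± 0.20 without WT replicate 1 and sham. Slc16a7 (MCT2), the lactate carrier of neurons, read -2.91, -1.92 and -3.20 in KO, 0.26, -2.19 and -2.97 in WT and -2.03 on sham. Of 8 further regulators of the factor all were measured, 0 passed, 3 were higher and 5 lower, and the median was -0.05. Without WT replicate 1 and sham 6 were higher and 2 lower, with a median of 0.03. Hif3a, a related subunit, read -0.15, -0.60 and 0.13 in KO, -3.48, -0.98 and -0.22 in WT and -1.75 on sham. Its difference was 1.36 ± 0.86 (SE; limma, adjusted p = 0.862), and 0.40 ± 0.33 without WT replicate 1 and sham. Of 30 further targets of the factor 29 were measured, 0 passed, and 19 were higher and 10 lower in KO with a median of 0.21. The split without WT replicate 1 and sham was 8 higher and 21 lower, with a median of -0.11. Hmox1, heme oxygenase, which clears heme, gave the widest reading: 5.40, 3.13 and 5.50 in KO, -1.60, 4.67 and 4.55 in WT and 3.83 on sham. WT replicate 1 was above the other 6 arrays for 18 of the 30 measured genes of sugar metabolism and below for 10, and above for 8 and below for 18 of the 29 measured targets. Over all genes it was above for 43.9% and below for 34.3%.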

How the data were processed

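Scanner files of 7 one-colour arrays were used. Per the file headers, the deposited intensity (processed signal) had its background subtracted and its trends removed within each array by Agilent Feature Extraction (version 11.5.1.1 per the submitters' processing notes), with no step between arrays. The deposited value table holds a linear ratio. It equals each processed signal over the array's 75th percentile (to within 0.0428%, column medians 0.0863 to 0.0976) and served as an alternative. Positions of probes come from the array design, on mm9.

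Processed signals were log2-transformed, and the 75th percentile of spots other than controls was subtracted. Of 43020 such spots per array, 31177 to 34029 were well above background, 0 were saturated, and 91 to 147 were dropped for an outlier flag. Spots of a probe were averaged, probes were kept if well above background on 3 or more of 7 arrays, and the brightest probe stood for a gene. Of 39429 probes, 28330 were named through a RefSeq table of GRCm38.p6 by accession, and the rest kept the file's name. Tests used lmFit and eBayes of limma 3.58.1 under R 4.3.3 (3 groups, 4 residual and 1.68 prior degrees of freedom), two-sided, adjusted by Benjamini-Hochberg over 23312 features. The steps were tested on simulated data. Pairs of forms used an exact permutation test. Genes named per comparison were the 8 members with the largest differences, but every member's values are given or summarised.

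The members and the further gene lists were chosen with earlier results of these data known. Same-numbered replicates of KO and WT deviated from their group means with correlations of -0.38, -0.56 and 0.35. KO replicates 1, 2 and 3 gave 0.32, -0.56 and 0.41 with WT replicate 2, and 0.37, -0.55 and 0.35 with WT replicate 3. With WT replicate 1 the signs were reversed, at -0.38, 0.61 and -0.42. That array sets the WT deviations, so these correlations cannot tell whether the numbers pair the arrays. Alternatives were normexp background correction, quantile and median scaling, the value table, other probe filters, the mean of a gene's probes, a replicate block, subsets of arrays and each array left out. The Hk1 probe on chromosome 10 and the pairs without WT replicate 1 and sham together were added after seeing the data.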

Additional observations from a re-analysis of the deposited data

How the results depend on the processing

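No member passed the threshold in any comparison under any alternative run, and 0 genes passed for KO against WT under all of them. With the replicate block the KO against WT counts stayed at 0 genes and 0 members and the members' median at -0.13. Whether the numbers pair the arrays could not be told, and the block changed no call. For WT against sham the 3 genes passing became 0 with normexp, quantile scaling, the filter on all 7 arrays and slide 1 alone, 1 with median scaling and 0 to 6 when single arrays were left out. For KO against sham the 3 became 0 with normexp, quantile scaling, median scaling and the filter on all 7 arrays, and 0 to 8 when single arrays were left out. The members' median for WT against sham, 0.13, was 0.01 with quantile scaling and 0.04 to 0.28 with single arrays left out. For KO against sham, 0.00, it was -0.13 with quantile scaling, 0.11 with median scaling and -0.09 to 0.11 with single arrays left out. The sign of KO minus WT turned for 16 of 34 members without WT replicate 1 and sham. Among the 8 with the largest differences, whose alternatives were all run, these were Hk3 (-0.27), Adm (-0.19), Hif1a (-0.04) and Slc2a3 (0.02). Leaving out single arrays gave -0.27 to 2.40, -0.19 to 2.01, -0.04 to 0.84 and -1.33 to 0.02 for these genes. In WT against sham, signs turned without WT replicate 1 for 15 of 34 members, and among the 8 with the largest differences for Hk3 (0.53), Hk2 (0.04) and Ankrd37 (-0.20), with ranges of -2.14 to 0.53, -1.51 to 0.04 and -0.20 to 0.74. Pairs of forms turned without WT replicate 1 and sham together for Hk3 minus Hk1 (-0.13), Pfkl minus Pfkm (-0.05), Pfkp minus Pfkm (-0.08), Ldha minus Ldhb (-0.15), Slc2a1 minus Slc2a3 (-0.16), Slc16a3 minus Slc16a1 (-0.23), Slc16a3 minus Slc16a7 (-0.99), Pdk1 minus Pdk2 (-0.16), Aldoa minus Aldoc (-0.06) and Egln3 minus Egln1 (-0.43). For Slc16a7 another probe is the brightest in that setting. With single arrays left out the ranges of these 10 pairs in the same order were -0.13 to 2.48, -0.05 to 0.33, -0.17 to 0.35, -0.15 to 0.78, -0.16 to 2.52, -0.23 to 0.98, -0.34 to 2.27, -0.16 to 0.80, -0.06 to 0.25 and -0.43 to 0.40. Apart from the change of Slc16a7 probe, the cause of these changes was not tested. The number of arrays, with 1 sham, limits what could be detected.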
